A study of Mus musculus with 6 samples.

Results

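The 9 genes Glrx5, Iscu, Nfs1, Isca1, Isca2, Lyrm4, Hscb, Bola3 and Nfu1 encode proteins that build iron-sulfur clusters inside mitochondria. They were taken by symbol from a table of 18388 genes, and all 9 were in it. The list was written around Glrx5, which had been picked because its difference between PFOA and DMSO had one of the lowest p-values of the table. The PFOA-DMSO differences of these genes are therefore given as descriptions, with no test. Transcripts were sequenced from morula-like aggregates, clusters grown from mouse expanded pluripotent stem cells as a culture model of the compacting embryo. The groups were 3 libraries from aggregates treated with PFOA (perfluorooctanoic acid, a persistent fluorinated surfactant) and 3 libraries from vehicle controls (DMSO). The sources used here give neither the dose nor the exposure time, and both groups share the same cells and culture media. The labels do not tell whether replicate libraries are separate cultures. The p-values thus rest on library spread alone, which may be technical.

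Iron-sulfur clusters are small inorganic cofactors that carry electrons and hold substrates in respiratory complexes, lipoyl synthase and many DNA enzymes. NFS1 draws sulfur from cysteine in a complex with its stabilising partner LYRM4, and the cluster is put together on the scaffold ISCU. HSCB, a J-domain cochaperone, brings loaded ISCU to the chaperone HSPA9, and the monothiol glutaredoxin GLRX5 receives the cluster. ISCA1 and ISCA2 then form the larger cubane clusters, and BOLA3 and NFU1 hand clusters on to recipients such as lipoyl synthase. In human patients, loss of NFU1 or BOLA3 function impairs lipoylated enzymes, and loss of GLRX5 function impairs haem synthesis or lipoylation.

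The series title names c-MYC, a factor whose classical binding motif is the E-box CACGTG, so the promoters of the 9 genes were searched for it. RefSeq windows (build GRCm38.p6) were matched by symbol for 7 of the 9 genes, all but Iscu and Hscb, and the 250 bases before each start were read. The E-box was in 0 of the 9 windows of these 7 genes (Bola3 has 3 annotated starts), against 6.02% of 32851 mouse windows of the same length. With so low a share and so few windows, of which the first 2 of Bola3 overlap, a count of 0 is unremarkable. Nothing about c-MYC is read from it. The CCAAT box was also searched, on both strands (CCAAT or ATTGG), a motif chosen after the sequences had been seen. It occurred 4 times before Glrx5, in a window count that 0.840% of all windows reach, 2 times each before Isca1 and Isca2, and 1 time before Nfu1. It occurred 0 times before Nfs1 and Lyrm4, and 1, 2 and 0 times before the 3 starts of Bola3. Of all windows, 33.9% hold at least 1 CCAAT box. A match is a string of letters in a window and does not show that a factor binds there. The windows of Glrx5 and Isca2, which had the largest differences between the groups, and of Nfu1, which had the smallest, are printed 5′ to 3′ on the plus strand, which is the coding strand of each, with the CCAAT boxes in capitals. They lie at chr12:105032368-105032617, chr12:84773020-84773269 and chr6:87009586-87009835, in that order.
Glrx5: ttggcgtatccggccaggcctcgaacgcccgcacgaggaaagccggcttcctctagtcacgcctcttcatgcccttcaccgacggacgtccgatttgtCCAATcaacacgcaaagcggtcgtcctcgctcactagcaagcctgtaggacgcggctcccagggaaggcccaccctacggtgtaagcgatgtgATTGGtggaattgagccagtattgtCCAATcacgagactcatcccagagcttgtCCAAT
Isca2: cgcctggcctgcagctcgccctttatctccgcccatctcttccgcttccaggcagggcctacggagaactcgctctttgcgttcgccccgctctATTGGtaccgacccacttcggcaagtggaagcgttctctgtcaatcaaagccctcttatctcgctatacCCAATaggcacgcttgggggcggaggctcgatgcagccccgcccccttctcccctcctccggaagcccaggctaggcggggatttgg
Nfu1: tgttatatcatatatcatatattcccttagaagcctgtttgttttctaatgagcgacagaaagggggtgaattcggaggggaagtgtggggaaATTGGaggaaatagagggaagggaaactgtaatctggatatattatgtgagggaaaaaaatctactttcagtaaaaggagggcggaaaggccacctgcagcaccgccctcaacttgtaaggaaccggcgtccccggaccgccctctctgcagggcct
In the Glrx5 window the boxes begin at −152, −59, −34 and −5 relative to the start, and in the Isca2 window at −156 and −87. The box of Nfu1 begins at −157. The series analysed here measures transcripts and not binding, so the windows are sequence context only.

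Expression was deposited as FPKM, fragments per kilobase of transcript scaled to the mapped fragments of each library, so levels can be ordered between genes. FPKM summed to 585739 to 630644 in the PFOA libraries and 641975 to 657239 in the DMSO libraries, and the read depth is unknown. On the first principal component of all tested genes, which held 45.2% of the variance, PFOA 1 (score 13.025) lay at one end and DMSO 1 and 2 (−12.5 and −10.0) at the other. DMSO 3 (0.957) lay nearer to PFOA 2 and 3 (3.99 and 4.55) than to the other DMSO libraries, so results are also given without these libraries where they matter. All 9 pluripotency markers checked were present, with means of 24.9 (Tfcp2l1) to 2095 FPKM (Dppa5a), whereas the 4 erythroid markers in the table, genes of a cell type with very high iron-sulfur and haem demand, had means of 0.0783 to 5.65 FPKM. The pluripotency markers summed to 3685 to 4146 FPKM in PFOA libraries and 4270 to 4486 FPKM in DMSO libraries. This sum mostly follows Dppa5a (means of 1952 FPKM in PFOA and 2239 in DMSO) and Pou5f1 (885 and 979), so it does not describe the markers as a set. Means were higher in PFOA for Esrrb, Zfp42, Tfcp2l1, Klf4 and Tdgf1, and nearly equal for Sox2 (140.0 in PFOA and 140.3 in DMSO). Pou5f1, Nanog and Dppa5a were lower in every PFOA library than in any DMSO library, as were 13.7% of all tested genes. Esrrb and Tfcp2l1 were higher in every PFOA library, as were 13.5% of all tested genes. The longest coding transcripts of the lower markers have 1362, 2211 and 619 nt, and those of the higher markers 4300 and 9269 nt. The groups overlapped for Zfp42 (1837 nt), Tdgf1 (1932 nt), Sox2 (2057 nt) and Klf4 (3029 nt). Zfp42 and Tdgf1 are shorter than Nanog but had higher means in PFOA. The 8 fibroblast feeder markers summed to 18.5 to 20.2 FPKM in PFOA libraries and 20.2 to 24.6 FPKM in DMSO libraries. That sum mostly follows Thy1 (means of 6.84 FPKM in PFOA and 8.30 in DMSO) and Dcn (6.24 and 7.59). Of the 8, 1 (Dcn) was lower and 1 (Pdgfra) higher in every PFOA library, and the groups overlapped for the rest. The part of these marker shifts in the differences of the assembly genes was not tested. RNA came from whole aggregates, so fewer cells of a type and less RNA per cell cannot be told apart. Genes averaging at least 1 FPKM were tested, 11876 in all, and limma on log2(FPKM + 1) with Benjamini-Hochberg adjustment called 1 gene lower in PFOA (0.00842%) and 0 higher (0%) at an adjusted p under 0.05. At an unadjusted p under 0.05 it gave 1489 genes lower (12.5%) and 1016 higher (8.56%), or 1114 lower (9.38%) and 1362 higher (11.5%) after quantile normalization.

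The 9 genes differed widely in level. Nfu1 was highest, at 70.4 ± 4.5 FPKM in PFOA libraries and 71.8 ± 3.6 FPKM in DMSO libraries (SD, n = 3 each), and Lyrm4 lowest, at 7.04 ± 1.0 FPKM in PFOA and 7.69 ± 0.68 FPKM in DMSO. Iscu, the scaffold, came after Nfu1 in both groups. Behind it, Glrx5 and Isca1 stood in opposite order in the groups. In PFOA Isca1 (38.6 ± 2.5 FPKM) was above Glrx5 (35.9 ± 1.3), with lowest Isca1 library 36.97 and highest Glrx5 library 36.96, a gap far inside the spread. In DMSO Glrx5 (43.9 ± 0.97) was above Isca1 (40.3 ± 2.3), with the lowest Glrx5 library at 43.21 and the highest Isca1 library at 41.99. Hscb followed in both groups, then Nfs1 and Isca2, whose library ranges overlapped in both groups, then Bola3 and Lyrm4. Apart from that pair, neighbours in the order did not overlap in range in either group. All 9 passed the filter on low values through both groups. Nfu1 was exceeded by 7.15% of all genes in the table and Lyrm4, the lowest, by 41.0%.

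**Figure D1:**
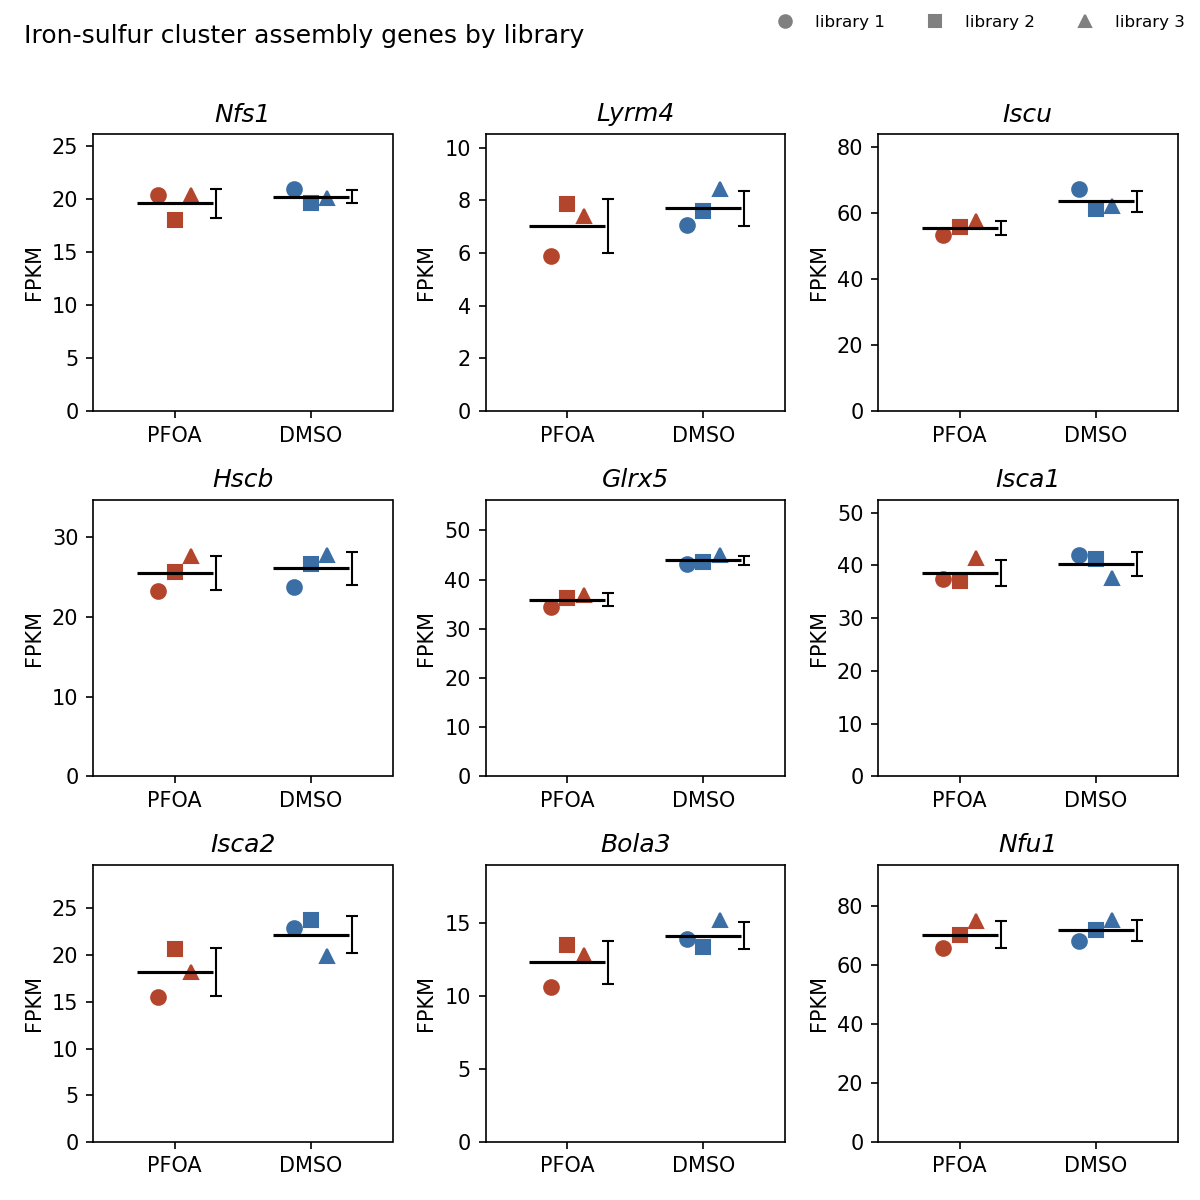
FPKM of each of the 9 assembly genes (vertical axes, each starting at 0) in the 3 PFOA libraries (red, left) and the 3 DMSO libraries (blue, right), with the mean as a line and 1 SD as a bar beside it. The groups stand apart for Glrx5 and Iscu, and they overlap for the other 7 genes.

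All 9 genes had a lower mean in PFOA than in DMSO, with log2 differences from −0.28 to −0.029 and a median of −0.12, and after quantile normalization 8 of the 9 were lower, with Nfu1 at 0.017. Over all tested genes the median was −0.0065, and 52.4% were lower in PFOA. Every PFOA library was below every DMSO library for 2 of the 9 genes (22.2%), against 13.7% of all tested genes. Both shares depended on the longest coding transcript. Under 1000 nt, at 1000 to under 2000 nt and at 2000 to under 4000 nt, 31.4%, 27.7% and 12.5% of tested genes were so placed. Lower means in PFOA were found for 85.8%, 81.8% and 57.0% of the same genes. These lengths hold 2, 3 and 4 of the 9 genes. Because Glrx5 was picked from this contrast, nothing is read from these counts. The summed FPKM of the 9 genes was 266.80, 285.12 and 297.05 in PFOA 1 to 3 and 308.95, 308.92 and 311.42 in DMSO 1 to 3. The spread between PFOA libraries (283 ± 15 FPKM, SD, n = 3) was thus wider than between DMSO libraries (310 ± 1.4), with PFOA 1 the lowest. The FPKM total of all genes was also lowest in PFOA 1 (585739). It was at most 630644 in PFOA libraries and at least 641975 in DMSO libraries. The part of these totals in the sums of the 9 genes was not tested.

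The first genes are those of sulfur release and the scaffold. Nfs1, the cysteine desulfurase, had 20.38, 18.03 and 20.38 FPKM in PFOA 1 to 3, against 20.91, 19.65 and 20.11 FPKM in DMSO 1 to 3. The groups overlapped, and the log2 difference was −0.045 with a standard error of 0.056. Lyrm4, the small LYR-motif protein that NFS1 needs for stability, had 5.88, 7.84 and 7.39 FPKM in PFOA libraries and 7.07, 7.59 and 8.41 FPKM in DMSO libraries. PFOA 1 was the lowest of the 6 for Lyrm4, and without it the log2 difference of −0.12 (SE 0.0995) became −0.010. Iscu, the scaffold, had 53.20, 55.70 and 57.40 FPKM in PFOA libraries, against 67.04, 61.13 and 62.07 FPKM in DMSO libraries. Its highest PFOA value lay 3.73 FPKM below its lowest DMSO value, and the log2 difference was −0.19 (SE 0.047), a mean 12.6% lower in PFOA. Of the 50-base words in Iscu transcripts 11.3% also occur in transcripts of other genes, so its level is uncertain by what such reads add. Iscu over Nfs1 was 2.61, 3.09 and 2.82 in PFOA libraries and 3.21, 3.11 and 3.09 in DMSO libraries, so the scaffold was about as far above the desulfurase in PFOA 2 as in DMSO 3.

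The next pair act in cluster transfer. Hscb, the cochaperone that docks ISCU on HSPA9, had 23.28, 25.62 and 27.56 FPKM in PFOA libraries and 23.77, 26.65 and 27.74 FPKM in DMSO libraries. The 2 groups spanned nearly the same range, with a log2 difference of −0.031 (SE 0.073). Glrx5, the glutaredoxin that takes over the cluster, had 34.45, 36.32 and 36.96 FPKM in PFOA 1 to 3, against 43.21, 43.49 and 45.02 FPKM in DMSO 1 to 3. All 3 PFOA libraries were low, with a gap of 6.25 FPKM to the lowest DMSO library and a within-group SD of 1.30 FPKM in PFOA and 0.974 FPKM in DMSO. The mean was 18.2% lower in PFOA, a log2 difference of −0.28 (SE 0.041). It stayed between −0.30 and −0.25 when any 1 library was left out, and was −0.32 without DMSO 1 and 2 and −0.24 without DMSO 3 and PFOA 1. A gene picked for a low p-value in this contrast will tend to have such a gap, small spread and steady difference. Nothing is therefore read from them. None of the 50-base words of Glrx5 transcripts (0%) occur in other annotated genes. Glrx5 over Hscb was 1.48, 1.42 and 1.34 in PFOA libraries and 1.82, 1.63 and 1.62 in DMSO libraries. Glrx5 over Iscu overlapped between groups, at 0.648, 0.652 and 0.644 in PFOA libraries and 0.644, 0.711 and 0.725 in DMSO libraries.

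The last 4 genes act late. Isca1 and Isca2, the A-type partners that make cubane clusters, differed from each other. Isca2 had 15.56, 20.70 and 18.20 FPKM in PFOA libraries and 22.90, 23.72 and 19.95 FPKM in DMSO libraries. PFOA 2 exceeded DMSO 3 for Isca2, so the groups overlapped, and the log2 difference of −0.28 had a standard error of 0.099, larger than that of Glrx5. It was −0.18 without PFOA 1 and −0.14 without DMSO 1 and 2. Isca1 had 37.49, 36.97 and 41.45 FPKM in PFOA libraries and 41.99, 41.22 and 37.67 FPKM in DMSO libraries, a log2 difference of −0.059 (SE 0.058). Isca1 shares 11.9% of its 50-base words with other genes and Isca2 none (0%). Bola3, which acts with GLRX5 and NFU1 in delivery to lipoyl synthase, had 10.64, 13.51 and 12.81 FPKM in PFOA libraries and 13.93, 13.34 and 15.20 FPKM in DMSO libraries. PFOA 2 was above DMSO 2, and without PFOA 1 the log2 difference of −0.19 (SE 0.085) became −0.097. Nfu1, the late carrier and most abundant of the 9, had 65.92, 70.43 and 74.90 FPKM in PFOA libraries and 68.13, 72.13 and 75.25 FPKM in DMSO libraries. Its groups overlapped almost fully, with a log2 difference of −0.029 (SE 0.056). Glrx5 over Nfu1, the 2 ends of the transfer route, was 0.523, 0.516 and 0.493 in PFOA libraries and 0.634, 0.603 and 0.598 in DMSO libraries, and did not overlap. Glrx5 was picked from this contrast and Nfu1 differed little, so the ratio repeats the difference of Glrx5 and nothing more is read from it. The same holds for Glrx5 over Hscb.

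Transcript length moved with the groups. Across 11721 genes, which are not independent replicates, the log2 difference ran with the length of the longest coding transcript (Spearman's rho 0.595). The median log2 difference was −0.16 for 732 genes under 1000 nt, −0.091 for 2420 genes of 1000 to under 2000 nt, −0.013 for 4720 genes of 2000 to under 4000 nt, and 0.066 for 3849 genes of at least 4000 nt. The 9 genes have longest coding transcripts of 804 nt (Hscb) to 2925 nt (Glrx5), and 0 of them reach 4000 nt. By this measure Glrx5 is the longest of the 9 and has the lowest log2 difference, and Isca2 (883 nt) and Hscb, both under 1000 nt, stood at −0.28 and −0.031. Glrx5 was picked for its difference, so nothing about length is read from its place. By the median length of coding transcripts, Glrx5 (1859 nt) is shorter than Lyrm4 (2086 nt) and Isca1 (1942 nt).

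**Figure D2:**
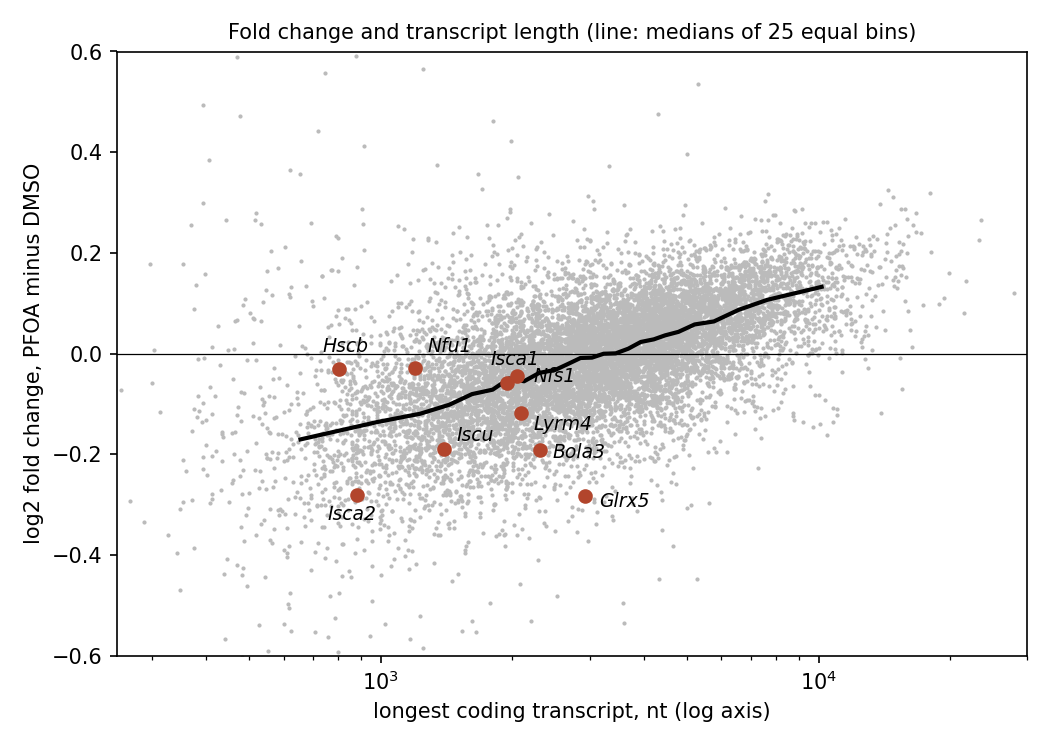
Log2 difference, PFOA minus DMSO (vertical axis), against the length of the longest coding transcript in nt (horizontal log axis) for tested genes (grey), with the median of 25 equal-sized length bins as a line and the 9 assembly genes in red. Glrx5, at 2925 nt and −0.28, lies well below the line, and Hscb and Nfu1 lie above it; 46 of 11721 genes fall outside the plotted range.

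With a trend on that length removed in each library, Glrx5 kept a log2 difference of −0.27 (SE 0.039). Relative to the DMSO mean its values were then −0.32, −0.25 and −0.23 in PFOA 1 to 3 and −0.034, −0.013 and 0.048 in DMSO 1 to 3, so the groups stayed apart. Because Glrx5 was picked on the deposited difference, this is a description and says nothing about the part of length. Iscu went to −0.087 (SE 0.039), and its highest PFOA value of −0.063 lay just under its lowest DMSO value of −0.062. Isca2 was at −0.13 (SE 0.070), Bola3 at −0.15 (SE 0.082) and Lyrm4 at −0.064 (SE 0.095), and all 3 overlapped between groups. Nfs1 (0.011), Isca1 (0.0033), Hscb (0.13) and Nfu1 (0.091) were then above 0, so 5 of the 9 genes were lower in PFOA and the median was −0.064. With a trend on the median transcript length removed instead, 6 of the 9 were lower and the median was −0.10. Glrx5 then stood at −0.26, Isca2 at −0.21 and Iscu at −0.12, while Nfs1 (0.024), Hscb (0.039) and Nfu1 (0.041) were above 0. The part of length in the deposited differences was otherwise not tested.

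**Figure D3:**
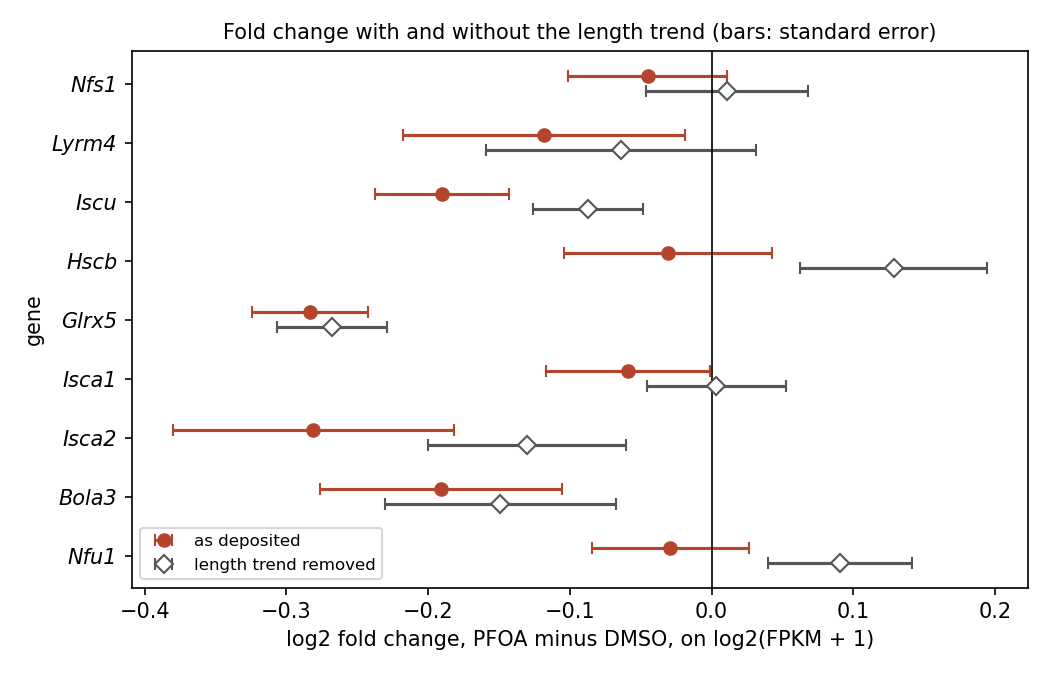
Log2 difference on log2(FPKM + 1), PFOA minus DMSO (horizontal axis), for each of the 9 genes, as deposited (red circles) and with the trend on the longest coding transcript removed (open diamonds); bars are standard errors of the fit across all genes. Glrx5 sits at −0.28 and −0.27, whereas Hscb sits at −0.031 and 0.13.

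The other genes of iron-sulfur and iron metabolism were taken from 8 lists of 91 genes written from known function, of which 90 were in the table and 87 were tested. By limma 0 of the 87 were called in either direction, with Benjamini-Hochberg adjusted p-values of 0.11 to 0.997 over all genes. At an unadjusted p under 0.05, 23 were lower (26.4%, against 12.5% of all tested genes) and 1 was higher (1.15%, against 8.56%). Without the length trend, which is the trend on the longest coding transcript, 10 were lower (11.5%, against 6.92% of all tested genes) and 2 higher (2.30%, against 6.38%). After quantile normalization 16 were lower (18.4%, against 9.38%) and 7 higher (8.05%, against 11.5%). The median log2 difference of the 87 was −0.044 as deposited, and −0.010 with the trend removed.

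Among partners of the core machinery, 9 of 11 tested genes were lower and 2 higher, with a median of −0.13. The acyl carrier protein Ndufab1, a subunit of the desulfurase complex, had 151.07, 159.09 and 163.42 FPKM in PFOA libraries and 187.08, 189.10 and 177.01 FPKM in DMSO libraries (log2 difference −0.22, SE 0.044, limma adjusted p = 0.11). Bola1, a mitochondrial BolA protein that binds GLRX5, had 20.81, 25.54 and 24.50 FPKM in PFOA libraries and 30.19, 30.35 and 30.16 FPKM in DMSO libraries (log2 difference −0.35, SE 0.069, limma adjusted p = 0.11). For both genes every PFOA library was below every DMSO library, as for 3 of the 11 partners (27.3%), against 13.7% of all tested genes. The chaperone Hspa9 had a mean of 303 ± 11 FPKM in PFOA and 294 ± 3.1 FPKM in DMSO (SD, n = 3 each). Ferredoxin reductase (Fdxr) had 6.23 ± 0.41 FPKM in PFOA and 7.18 ± 0.59 in DMSO, and ferredoxin Fdx1 8.05 ± 0.41 and 8.38 ± 1.2 in PFOA and DMSO. Fdx2, the ferredoxin of cluster assembly, had 27.99 ± 5.2 FPKM in PFOA and 34.3 ± 1.4 in DMSO, but shares 70.5% of its 50-base words with other annotated genes. Iba57, the partner of ISCA1 and ISCA2, had 2.43 ± 0.18 and 2.36 ± 0.23 FPKM in PFOA and DMSO, and Nubpl, the assembly factor for complex I clusters, 9.25 ± 0.45 FPKM in PFOA and 10.2 ± 0.91 FPKM in DMSO. Lyrm7 of this list, and Xdh and Dpyd of the cytosolic and nuclear list, had a mean under 1 FPKM and were not tested.

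Of 6 tested genes of mitochondrial iron and cluster transport, 4 were lower and 2 higher (median −0.075, against −0.018 with the length trend removed). The iron importers Slc25a37 and Slc25a28 had 7.11 ± 0.48 and 21.8 ± 1.0 FPKM in PFOA, against 7.26 ± 0.25 and 23.8 ± 1.1 FPKM in DMSO, and both overlapped. Every PFOA library was below every DMSO library for Abcb8 and Tmem14c, 2 of the 6 transport genes (33.3%, against 13.7% of all tested genes) named after their values were seen, with log2 differences of −0.18 and −0.15 as deposited and −0.17 and −0.0062 with the length trend removed. Their limma adjusted p-values were 0.142 and 0.155.

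Among mitochondrial proteins that carry a cluster, 14 of 16 were lower and 2 higher (11 and 5 after quantile normalization), with a median of −0.12 and of −0.036 after removal of the length trend. Every PFOA library was below every DMSO library for 6 of the 16 (37.5%), against 13.7% of all tested genes and 27.7% of those of 1000 to under 2000 nt. The respiratory subunits Uqcrfs1 and Sdhb, both of that length, had 62.5 ± 0.86 and 73.7 ± 3.8 FPKM in PFOA, against 73.7 ± 2.4 and 81.3 ± 2.6 FPKM in DMSO. Their groups were apart, with limma adjusted p-values of 0.11 and 0.161. The Sdhb log2 difference of −0.14 was −0.016 with the length trend removed. Cisd1, an outer-membrane cluster protein, had 60.70, 63.31 and 67.20 FPKM in PFOA libraries and 75.84, 74.02 and 75.66 FPKM in DMSO libraries. The complex I subunit Ndufs1 had 49.1 ± 0.36 FPKM in PFOA and 47.4 ± 1.9 in DMSO. Lipoyl synthase (Lias), at 18.0 ± 1.1 FPKM in PFOA and 18.2 ± 0.59 in DMSO, and ferrochelatase (Fech), at 14.3 ± 0.33 FPKM in PFOA and 14.4 ± 0.54 in DMSO, differed by less than 1 SD. Cisd1, Ndufv2 and Uqcrfs1 were the 3 pathway genes whose profile over the 6 libraries was nearest to that of Glrx5, with root mean square differences of 0.042, 0.056 and 0.060 in log2(FPKM + 1) relative to the DMSO mean. This measure holds the PFOA-DMSO difference for which Glrx5 was picked. The 3 genes are therefore low in PFOA by the way they were chosen, and nothing is read from that. All 3 are shorter than Glrx5, at 1084, 1697 and 1363 nt. Removing the length trend put their log2 differences at −0.11, −0.18 and −0.13.

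Lipoylated enzymes and their synthesis, which depend on the late clusters, had 5 of 7 genes lower and 2 higher (median −0.089), and with the length trend removed 4 of 7 were lower (median −0.027). All 7 genes of haem synthesis were lower (median −0.080), or 5 of 7 after quantile normalization, of which 0 had an unadjusted p under 0.05 and 3 were lower with the length trend removed (median 0.013). In the cytosolic assembly machinery 8 of 11 were lower and 3 higher (median −0.12, against −0.016 with the length trend removed and −0.079 after quantile normalization). Glrx3, the cytosolic glutaredoxin, had 95.4 ± 1.6 FPKM in PFOA and 100.8 ± 0.14 in DMSO, Ciapin1 59.1 ± 2.6 and 64.5 ± 2.4, and the targeting factor Ciao1 14.3 ± 0.51 and 15.6 ± 1.1 FPKM in PFOA and DMSO. The groups were apart for Glrx3 and Ciapin1 and overlapped for Ciao1. Every PFOA library was below every DMSO library for 3 of the 11 genes (27.3%), against 13.7% of all tested genes. Mms19, a cytosolic targeting factor named here after its values were seen, was the 1 gene of the 87 that was higher at an unadjusted p under 0.05, with 30.47, 30.33 and 28.80 FPKM in PFOA libraries and 26.90, 26.71 and 27.89 FPKM in DMSO libraries. Its log2 difference of 0.13 (SE 0.041, limma adjusted p = 0.15) was 0.049 with the length trend removed.

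**Figure D4:**
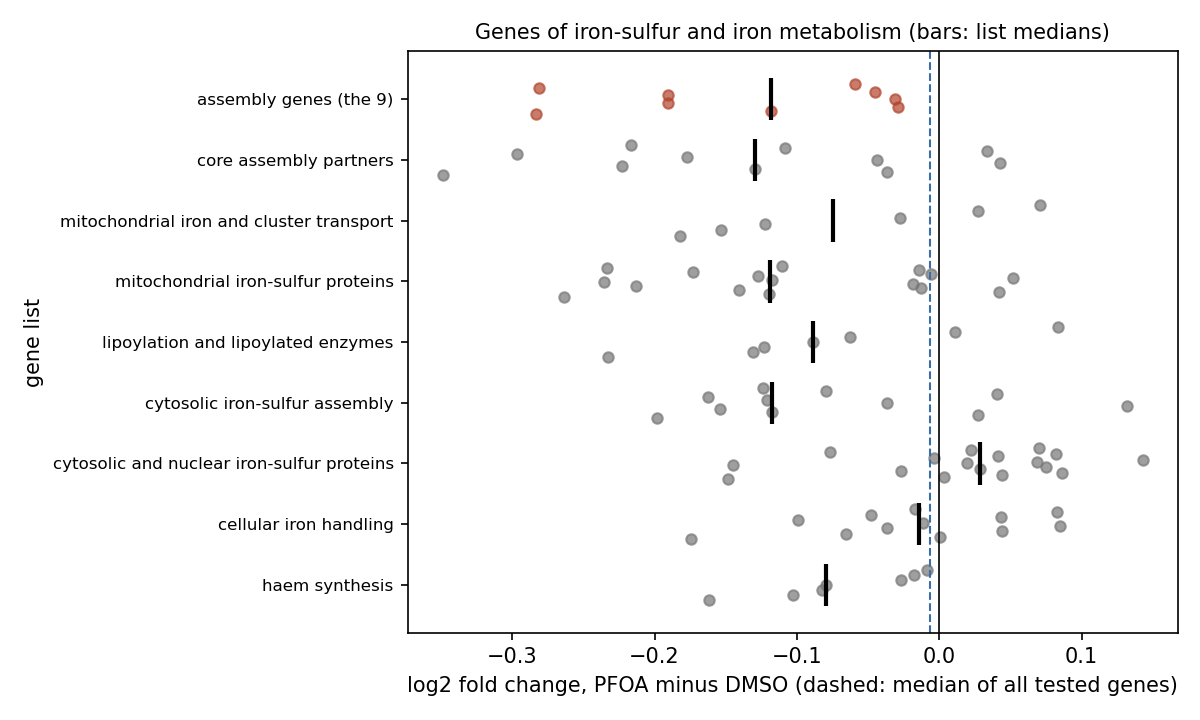
Log2 difference, PFOA minus DMSO (horizontal axis), of each tested gene in the 9 assembly genes (red) and in the 8 other lists (grey), with list medians as black bars and the median of all tested genes (−0.0065) as a dashed line. The 9 assembly genes all lie below 0 (8 of 9 after quantile normalization), with a median of −0.12, and the cytosolic and nuclear iron-sulfur proteins have a median of 0.029.

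Cytosolic and nuclear iron-sulfur proteins, such as DNA polymerases and helicases, had 5 of 17 genes lower and 12 higher, with a median of 0.029. Their median longest transcript was 3578 nt, against 1942 nt for the 9 assembly genes, and their median was 0.015 with the length trend removed. The iron sensors Aco1 and Ireb2, which bind iron-responsive elements when iron or clusters are short, had 25.2 ± 0.47 and 35.9 ± 2.0 FPKM in PFOA, against 23.9 ± 0.54 and 33.8 ± 0.51 FPKM in DMSO. Every PFOA library was above every DMSO library for both, as it was for 13.5% of all tested genes, with limma adjusted p-values of 0.303 and 0.326. Their log2 differences of 0.075 and 0.085 were 0.060 and 0.019 with the length trend removed. The transferrin receptor Tfrc, whose transcript those sensors stabilise, had 55.22, 49.01 and 51.93 FPKM in PFOA libraries and 47.33, 49.44 and 50.41 FPKM in DMSO libraries, and the groups overlapped. The ferritin heavy chain Fth1 had 875.7, 890.3 and 909.7 FPKM in PFOA libraries and 960.6, 946.9 and 959.1 FPKM in DMSO libraries. All PFOA values of Fth1 were lower, as for 13.7% of all tested genes. The Fth1 log2 difference of −0.0995 (SE 0.041, limma adjusted p = 0.219) was −0.0042 with the length trend removed. Over the 12 genes of cellular iron handling 7 were lower and 5 higher, with a median of −0.014, which turned to 4 lower and 8 higher with a median of 0.018 after quantile normalization.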

How the data were processed

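Polyadenylated RNA of 6 libraries (3 PFOA, 3 DMSO, grouped by title) was sequenced on a BGISEQ-500, per the labels' protocols, from 1.2 µg of total RNA with an integrity number above 8.0. The authors deposited FPKM per gene symbol to 2 decimals. Per the submitters' processing notes, GRCm39, Bowtie2 2.2.5 and HISAT2 2.0.4 were used. The sources used here state neither what each tool did nor the counter or annotation. Of 307 low values, 61.6% were within 0.15 of a whole multiple of the gene's smallest value, so whole reads were not recovered, depth is unknown and no count test was run.

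Genes averaging at least 1 FPKM were fitted as log2(FPKM + 1) in limma 3.58.1 (R 4.3.3) with a variance trend, two-sided, with Benjamini-Hochberg adjustment over all genes. Fold changes on this scale understate those of low genes. The fit was tested on simulated data. Transcript lengths and shared 50-base words came from GENCODE M21 (GRCm38), so no gene coordinates are taken from it, and a length was found for 98.7% of tested genes. The length trend is a lowess curve per library. The 9 genes, the lists and the named genes (picked for known role, plus the 3 profiles nearest to Glrx5) were chosen with earlier results of these data known. A few genes of the naming rule are not reported here. Alternatives covered the pseudocount, filter, scaling, variance prior, library weights, replicate block, length and libraries left out.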

Additional observations from a re-analysis of the deposited data

How the results depend on the processing

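The median log2 difference of the 9 genes, −0.12, ranged from −0.19 to −0.073 when 1 library was left out, and moved by less than the spread of that median between libraries (SD 0.077) under all 18 alternatives. Of 162 values of single genes under these alternatives, 151 lay within 1 SD of the reported value. Both that count and the 18 alternatives include settings that cannot move the fold changes of these genes. Both filter alternatives, the fit without the variance trend and the replicate block left them unchanged by construction. The block with the longest-transcript trend removed repeated the fold changes of that trend removed alone. Glrx5, Iscu, Isca2 and Bola3 were lower in PFOA under all 18, while Nfu1 changed sign under 7, Hscb under 6, Nfs1 under 4, Isca1 under 3 and Lyrm4 under 1. For Glrx5, picked from this contrast, nothing is read from that. Over all genes, the count called lower, 1 as reported, was 0 without the filter, without the variance trend, with the replicate block (with or without the trend on the longest transcript), with that trend removed alone, and without both DMSO 1 and DMSO 2. It was 2 with library weights and 42 without both DMSO 3 and PFOA 1, where 10 were called higher, against 0 as reported. Leaving out 1 library gave 0 to 91 lower and 0 to 13 higher, the most lower without PFOA 2 and the most higher without DMSO 3 (39 lower there). Of the 87 other pathway genes 0 were called lower as reported and 0 to 2 with 1 library left out. The 2 were Bola1 and Nubp2, without PFOA 2 (limma adjusted p = 0.0498 and 0.0459). The cause of these moves was not tested. The deviations of same-numbered libraries from their group means had correlations of −0.11, −0.0095 and −0.14. With 3 libraries a group these cannot decide whether the numbers pair the libraries, and the labels do not say. The replicate block left the fold changes unchanged by construction. With 3 libraries a group and unknown depth, the differences of Nfs1, Isca1, Hscb and Nfu1 were about as large as their standard errors or smaller.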
